A study of Mus musculus with 12 samples.

Results

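Apobec1 and Gdf3 are adjacent genes on mouse chromosome 6, and their levels were read from the deposited count and RPKM tables of a heart injection study. They are 2 of the 38293 genes in those tables. They were selected on these same counts, because earlier results showed both high after hydrogel injection, so their levels and differences are given as a description, with no test. All 12 libraries came from healthy mice of the strain C57BL/6J. Left ventricles were taken on day 3 after intramyocardial injection, given as 2 doses with a volume of 10 µl per dose. One group received Upy-PEG with antimiR-195, another received Upy-PEG alone, and the third received PBS, with 4 libraries each. Upy-PEG is a supramolecular hydrogel built on polyethylene glycol, and antimiR-195 is an oligonucleotide inhibitor of the microRNA miR-195. PBS is a salt solution with neither component, and all 3 groups were injected; no uninjected heart was analysed here. The labels do not say whether each library is a separate animal, and errors then measure the spread between these libraries, which may be technical.

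APOBEC1 is a cytidine deaminase that edits C to U in RNA. It is best known in the intestine, where it edits the mRNA of apolipoprotein B together with an RNA-binding cofactor, A1CF or RBM47, and it also edits 3' untranslated regions of many transcripts in mouse macrophages. GDF3 is a ligand of the TGF-beta superfamily that acts much like Nodal, through the activin receptors ALK4, ALK7 and ActRIIB with the co-receptor Cripto, and on SMAD2 and SMAD3. It is known from embryonic stem cells and adipose tissue, and in injured mouse skeletal muscle macrophages secrete it under the control of PPAR-gamma and RXR.

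On GRCm38, Apobec1 (ENSMUSG00000040613) lies at chr6:122577792-122602444 and Gdf3 (ENSMUSG00000030117) at chr6:122605403-122610087, both protein-coding and both on the minus strand. The gap between them is 2958 bp, with the 3' end of Gdf3 upstream of the Apobec1 start. GENCODE release M21 annotates 9 Apobec1 transcripts and 2 Gdf3 transcripts. The longest Apobec1 transcript has 8 exons and the longest Gdf3 transcript has 2. No other annotated gene overlaps either gene, and the libraries came from a stranded kit. The 250 bases before the outermost Apobec1 start are shown because they lie in the gap between the genes. They are from RefSeq (GRCm38.p6, chr6:122602445-122602694, minus strand, 5' to 3'), with capitals on the motif matches described after it.
Apobec1 upstream: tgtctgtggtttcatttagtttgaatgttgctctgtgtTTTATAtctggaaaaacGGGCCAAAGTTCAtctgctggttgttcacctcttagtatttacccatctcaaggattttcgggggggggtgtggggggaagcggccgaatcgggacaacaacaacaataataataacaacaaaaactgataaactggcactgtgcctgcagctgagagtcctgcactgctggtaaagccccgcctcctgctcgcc
The motifs were chosen with this sequence in view, and both strands were searched. The first capitals are a match to TATAAA on the opposite strand at -212 from the start, a match that 12.4% of 32851 promoters of the same length hold. The second capitals match 2 copies of AGGTCA spaced by 1 base, with 3 mismatches, the number allowed, as 21.3% of promoters do. That repeat is the DR1 element to which PPAR and RXR dimers bind. GAGGAA, the core bound by the myeloid factor PU.1, had no match in this window, and it occurs in 23.3% of promoters. TGANTCA, the AP-1 element, also had no match, and 6.7% of promoters hold it. These are matches of letters only and say nothing of binding.

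The agent in the first group is directed at miR-195, whose mature form from RefSeq (mmu-miR-195a-5p, chr11:70235062-70235082, plus strand) is shown for its seed, bases 2 to 8, in capitals.
mmu-miR-195a-5p: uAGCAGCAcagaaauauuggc
No match to the seed was found in the annotated 3' untranslated regions of Apobec1 (1015 bp) or Gdf3 (903 bp), for the 8-base site TGCTGCTA, the 7-base site TGCTGCT or the 6-base site GCTGCT. Among 21105 genes searched the same way, 4.4%, 22.2% and 41.8% held these sites, in that order.

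Libraries held 22353241 to 30278621 gene-assigned reads. In the fit over all 14770 genes that passed the count filter, 0 genes (0%) passed an adjusted p of 0.05 in any comparison with edgeR. At an unadjusted p under 0.05, 16.5% of genes passed for antimiR-195 against PBS, 13.2% for Upy-PEG against PBS, 13.1% for antimiR-195 against Upy-PEG and 15.2% for both hydrogel groups against PBS. DESeq2 called 95, 505, 13 and 367 genes in these comparisons at an adjusted p under 0.05. Replicates 2 and 3 of the antimiR-195 group stood apart in how counts varied with gene length, with slopes of -0.229 and -0.135 log2 units per log2 of length, against -0.042 to 0.122 in the other 10 libraries. The pair and the counts of each gene list are therefore also given from a fit without them, called the 10-library fit, and no listed or neighbouring gene then passed an adjusted p of 0.05 in antimiR-195 against PBS. In that fit 2.2% of all genes were higher and 2.28% lower at an unadjusted p under 0.05 in that comparison. Levels in CPM are counts-per-million values with library sizes scaled by TMM factors. Heart tissue markers were high in every library: the 7 cardiomyocyte markers summed to 51370 to 57430 CPM in antimiR-195, 37880 to 51840 CPM in Upy-PEG and 54950 to 64050 CPM in PBS libraries. The comparisons against PBS share the same 4 PBS libraries.

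Apobec1 was at a higher level in all 8 hydrogel libraries than in any PBS library. Of all genes tested, 2.74% had every antimiR-195 library above every PBS library, 5.91% had every Upy-PEG library above, and 1.04% had all 8 hydrogel libraries above. Because the pair was picked for this pattern, nothing is read from these shares. Apobec1 had 16.05, 22.16, 20.33 and 22.1 CPM in antimiR-195 libraries, from 346, 515, 416 and 571 reads. The Upy-PEG libraries had 23.93, 26.07, 23.17 and 21.57 CPM, from 770, 789, 584 and 584 reads. The PBS libraries had 8.6, 10.77, 13.07 and 13.62 CPM, from 264, 254, 314 and 342 reads. The lowest hydrogel library, antimiR-195 replicate 1, was thus at 16.1 CPM against 13.6 CPM in the highest PBS library. The antimiR-195 and Upy-PEG groups overlapped, with 2 of 4 antimiR-195 libraries below all Upy-PEG libraries. Per gene length, in the authors' RPKM (reads per kilobase scaled by library size), Apobec1 averaged 8.07 ± 1.38 RPKM in antimiR-195, 10.5 ± 1.21 RPKM in Upy-PEG and 4.76 ± 0.961 RPKM in PBS libraries (SD, n = 4 each). At these levels it stood above 78.7% of genes with reads in antimiR-195, 81.8% in Upy-PEG and 69.2% in PBS libraries.

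The log2 fold change of Apobec1 (± SE of the fit, n = 4 libraries per group) was 0.81 ± 0.15 for antimiR-195 against PBS, a 1.75-fold higher level. For Upy-PEG against PBS it was 1.04 ± 0.149, or 2.06-fold. The order of the groups was Upy-PEG, then antimiR-195, then PBS, and the neighbours Upy-PEG and antimiR-195 overlapped, with a log2 difference of -0.23 ± 0.147. Without antimiR-195 replicates 2 and 3, the antimiR-195 value against PBS was 0.74 ± 0.18. For both hydrogel groups against PBS the log2 fold change was 0.93 ± 0.134.

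**Figure D1:**
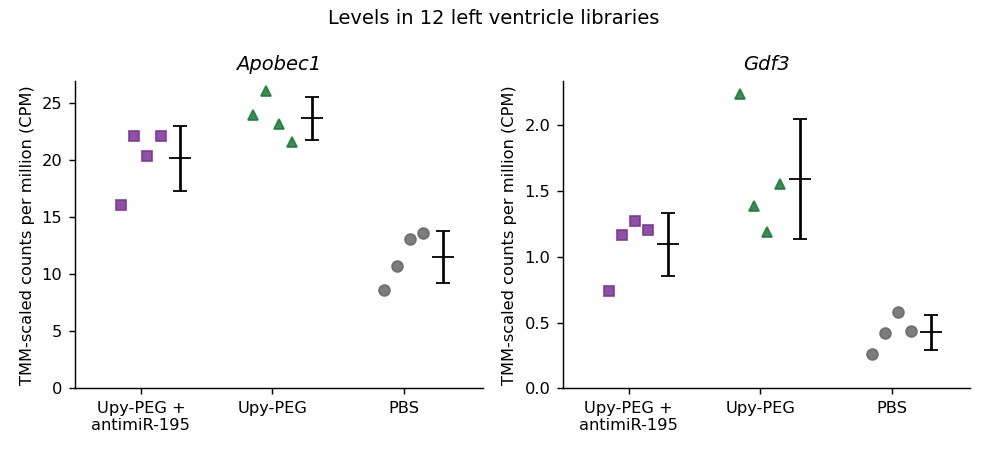
Level of Apobec1 (left) and Gdf3 (right) in each library, in TMM-scaled CPM, with replicates 1 to 4 from left to right and black bars for the group mean ± SD (n = 4). For both genes all 8 hydrogel libraries lie above all 4 PBS libraries, while the antimiR-195 and Upy-PEG groups overlap.

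Gdf3 had the same order of groups at a far lower level per gene length. It had 0.742, 1.16, 1.27 and 1.2 CPM in antimiR-195 libraries, from 16, 27, 26 and 31 reads. The Upy-PEG libraries had 2.24, 1.39, 1.19 and 1.55 CPM, from 72, 42, 30 and 42 reads. The PBS libraries had 0.261, 0.424, 0.583 and 0.438 CPM, from 8, 10, 14 and 11 reads. All 8 hydrogel libraries again stood above all 4 PBS libraries, by a narrow margin of 0.742 CPM in the lowest hydrogel library against 0.583 CPM in the highest PBS library. These were 16 reads in antimiR-195 replicate 1 and 14 reads in PBS replicate 3, and the exact Poisson 95% interval of the PBS count is 7.7 to 23.5 reads, counting error only. Upy-PEG replicate 1 was the highest library, with 72 reads and an interval of 56.3 to 90.7.

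Gdf3 averaged 0.492 ± 0.113 RPKM in antimiR-195, 0.803 ± 0.277 RPKM in Upy-PEG and 0.198 ± 0.0612 RPKM in PBS libraries (SD, n = 4 each). All 3 means are below the median gene with reads, which was at 1.26 RPKM in antimiR-195, 1.34 RPKM in Upy-PEG and 1.26 RPKM in PBS libraries. The log2 fold change was 1.37 ± 0.314 for antimiR-195 against PBS, or 2.58-fold, and 1.91 ± 0.304 for Upy-PEG against PBS, or 3.76-fold. The difference of antimiR-195 from Upy-PEG was -0.54 ± 0.277 log2 units, and it was -0.33 without Upy-PEG replicate 1. Without antimiR-195 replicates 2 and 3 the antimiR-195 value against PBS was 1.22 ± 0.391. For both hydrogel groups against PBS it was 1.64 ± 0.28.

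The estimated difference from PBS was larger for Gdf3 than for Apobec1, but the sizes of the differences were not tested against each other. For antimiR-195 the estimates were 1.37 ± 0.314 and 0.81 ± 0.15. The ratio of the genes is given for each library. Apobec1 exceeded Gdf3 on the RPKM scale by a ratio of 19.2, 17, 14.2 and 16.4 in antimiR-195 libraries and 9.5, 16.7, 17.3 and 12.4 in Upy-PEG libraries. In PBS libraries the ratio was 29.3, 22.6, 19.9 and 27.6. Every PBS ratio was above every hydrogel ratio, and the ratio averaged 16.7 ± 2.06 in antimiR-195, 14.0 ± 3.7 in Upy-PEG and 24.9 ± 4.36 in PBS libraries (SD, n = 4). The margin was small, 19.2 in the highest hydrogel library against 19.9 in the lowest PBS library, and PBS ratios rest on 8 to 14 Gdf3 reads. Since both genes were picked on these counts, nothing is read from the separation of the ratios.

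Across the 12 libraries the log2 CPM of the genes moved together, with Pearson r = 0.949 and Spearman rho = 0.825. Much of this lies between the groups. With each group's mean taken out, r was 0.689. Among the 8 hydrogel libraries alone r was 0.719 and rho 0.429, and the 4 PBS libraries are too few for a value of their own. Leaving out the libraries farthest from the median of Apobec1, PBS replicates 1 and 2, gave r = 0.898 (n = 10). The libraries fall into a PBS and a hydrogel cluster, and the pooled r includes the difference between them. The same 12 libraries underlie every such value, and no p is given.

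**Figure D2:**
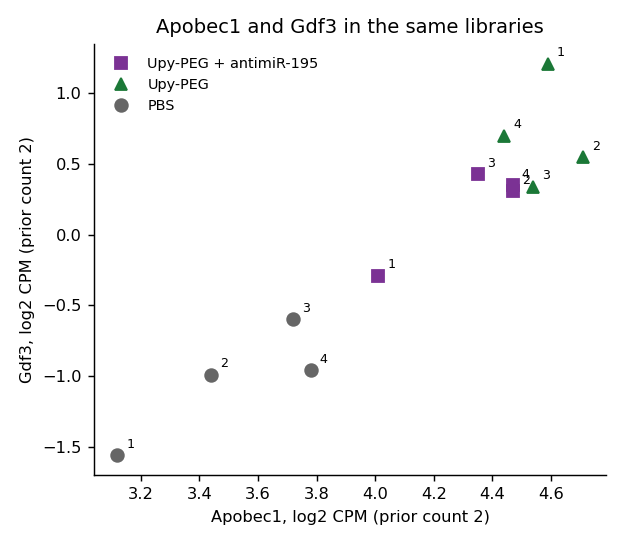
Gdf3 against Apobec1 in the same library, both in log2 CPM with a prior count of 2, with replicate numbers beside the points. The PBS libraries lie at the lower left and the hydrogel libraries at the upper right, with antimiR-195 replicate 1 nearest to PBS (Pearson r = 0.949, n = 12).

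Among the other genes tested, Gdf3 ranked 3 of 14769 in likeness to Apobec1, and Apobec1 ranked 2 in likeness to Gdf3. With group means taken out the ranks were 312 and 517. Among 2349 pairs of tested genes adjacent on the same strand, the median r was 0.107, and 0.72% had an r at least as high as this pair. Both genes were picked for being high after hydrogel injection, which raises their pooled r. Nothing is therefore read from the pooled ranks or from this share. The genes most like Apobec1, among those with a mean of at least 1 CPM, were Ddias at r = 0.952, the unnamed ENSMUSG00000089672 at 0.95, Gdf3, then Cd68 at 0.947, Gla at 0.942, Gm49339 at 0.937, Btk at 0.935, Ms4a6d at 0.932, Tpd52 at 0.928 and Rab32 at 0.927. Cd68 encodes a lysosomal glycoprotein used as a macrophage marker, Gla the lysosomal alpha-galactosidase, and Btk a tyrosine kinase of B cells and myeloid cells. The genes most like Gdf3 were ENSMUSG00000089672 at r = 0.952, Apobec1, then Gm49339 at 0.939, Ctsc at 0.936, Star at 0.927, C3ar1 at 0.926, and Kcnn4, Nppa, Mum1l1 and Sprr1a, each at 0.925. Ctsc encodes the lysosomal protease cathepsin C and C3ar1 the receptor for the complement fragment C3a, whereas Nppa encodes the atrial natriuretic peptide of cardiomyocytes.

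The neighbours of the pair differed among themselves, and those with the higher values in hydrogel libraries lay 48.5 kb or more from it. The only nearer gene that passed the count filter was the low pseudogene Gm8459, so no pattern by distance is read. Of 38 other genes annotated within 500 kb, 30 were in the tables and 13 passed the count filter. None passed the adjusted threshold. For antimiR-195 against PBS, 9 of the 13 had a positive log2 fold change, as 50.8% of all genes did, and 4 a negative one, 5 were higher and 0 lower at an unadjusted p under 0.05, and the median was 0.37. The background is 8.65% of all genes higher and 7.89% lower, with a median of 0.01. For Upy-PEG against PBS, 10 were positive, beside 44.7% of all genes, and 3 negative, 6 were higher and 0 lower at an unadjusted p under 0.05, with a median of 0.14. There, 9.33% of all genes were higher and 3.83% lower, and their median was -0.03. Without antimiR-195 replicates 2 and 3, 1 of the 13 was higher in the antimiR-195 comparison, with a median of 0.12, beside 2.2% of all genes. With the length slope of each library in the fit, 4 of the 13 were higher, beside 3.97% of all genes.

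The nearest genes described here were low or had few reads. Gm8459, a processed pseudogene 10.3 kb away, was the nearest gene that passed the filter, with 0.405 ± 0.385 CPM in antimiR-195, 0.604 ± 0.174 CPM in Upy-PEG and 0.697 ± 0.217 CPM in PBS libraries (SD, n = 4). Its reads are uncertain, since a processed pseudogene resembles its parent gene. On the other side of the pair, Dppa3, a germ cell gene 16.3 kb away, had 72 reads over all libraries, and the pluripotency gene Nanog had 8. Neither passed the filter.

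Mfap5 and C3ar1 had the log2 fold changes closest to those of Apobec1 among neighbours. Mfap5, which encodes a microfibril-associated glycoprotein and lies 48.5 kb away, averaged 58.7 ± 22.2 CPM in antimiR-195, 63.1 ± 16.5 CPM in Upy-PEG and 33.7 ± 2.21 CPM in PBS libraries. Its log2 fold change was 0.80 ± 0.229 for antimiR-195 (adjusted p = 0.253, edgeR) and 0.91 ± 0.229 for Upy-PEG (adjusted p = 0.112, edgeR) against PBS. The 10-library fit gave 0.37 ± 0.187 for antimiR-195. C3ar1, 237.1 kb away, averaged 33.6 ± 6.66 CPM in antimiR-195, 44.2 ± 12.1 CPM in Upy-PEG and 20.3 ± 4.44 CPM in PBS libraries. Its values against PBS were 0.73 ± 0.212 for antimiR-195 (adjusted p = 0.253, edgeR) and 1.13 ± 0.212 for Upy-PEG (adjusted p = 0.0971, edgeR), and 0.53 ± 0.242 for antimiR-195 in the 10-library fit. The C-type lectin receptor genes Clec4a1, Clec4a3 and Clec4a2, farther out on the same side as C3ar1, had log2 fold changes of 0.54, 0.68 and 0.92 for antimiR-195 and 0.76, 0.88 and 1.14 for Upy-PEG. For antimiR-195 in the 10-library fit they were 0.22, 0.34 and 0.47.

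The other neighbours had log2 fold changes on both sides of 0. M6pr, which encodes a mannose phosphate receptor of the lysosomal sorting route, had 0.16 ± 0.104 for antimiR-195 and 0.14 ± 0.103 for Upy-PEG. Necap1, an endocytosis gene, had 0.03 ± 0.0958 and 0.06 ± 0.0954 in that order. The transcription factor gene Foxj2 had -0.25 ± 0.22 and -0.09 ± 0.22, and the Polycomb gene Phc1 had -0.23 ± 0.154 and -0.06 ± 0.152. Slc2a3, a glucose transporter gene, differed in sign between the comparisons, with -0.06 ± 0.171 for antimiR-195 and 0.46 ± 0.167 for Upy-PEG. The low Gm8430 and Clec4b1 had 0.70 ± 0.401 and 0.37 ± 0.379 for antimiR-195, and 0.12 ± 0.408 and 0.07 ± 0.378 for Upy-PEG.

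**Figure D3:**
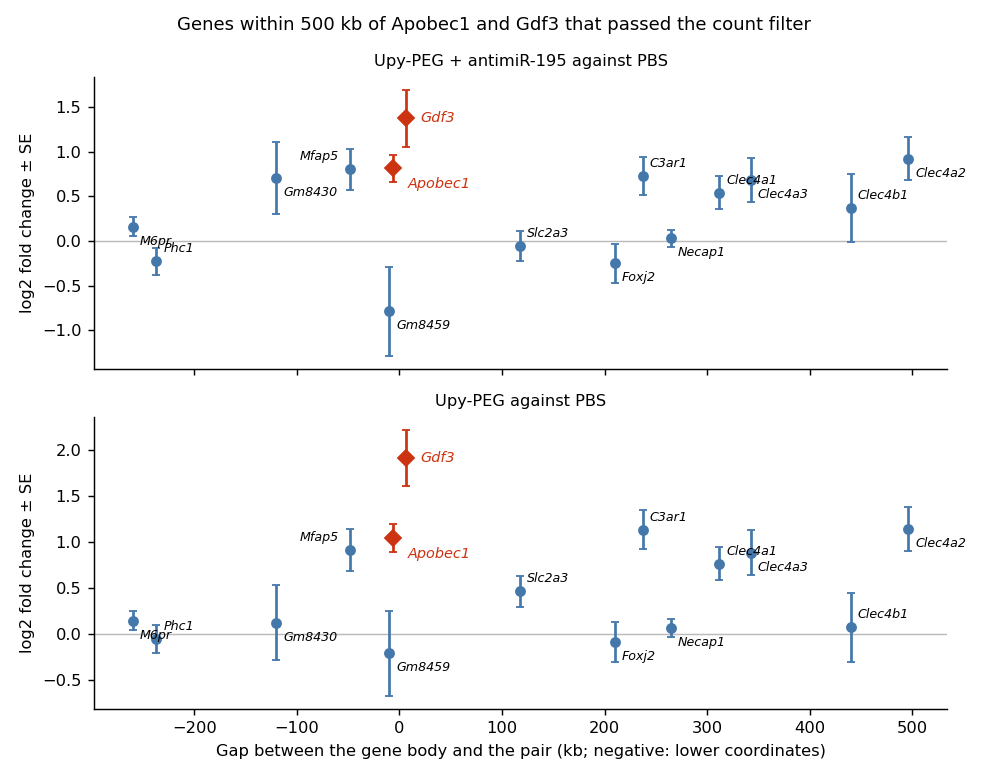
Log2 fold change ± SE against PBS (n = 4 libraries per group) of the 13 neighbours that passed the count filter, by their distance in kb from the pair, for Upy-PEG with antimiR-195 (top) and Upy-PEG (bottom). Gdf3 has the highest value in both panels, while genes between it and C3ar1 lie below 0.5.

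The editing cofactors of APOBEC1 had smaller log2 fold changes than Apobec1 itself, which was picked for being high after hydrogel injection. A1cf, the cofactor of the intestine and liver, had 1 read in all 12 libraries. Rbm47, the alternative cofactor, averaged 2.89 ± 0.791 CPM in antimiR-195, 4.2 ± 0.868 CPM in Upy-PEG and 2.44 ± 0.776 CPM in PBS libraries. Its log2 fold change against PBS was 0.26 ± 0.264 for antimiR-195 (adjusted p = 0.598, edgeR) and 0.79 ± 0.259 for Upy-PEG (adjusted p = 0.186, edgeR). It was also the cofactor most like Apobec1 across libraries, with r = 0.81. Of the 7 cofactors tested out of 8, none passed the adjusted threshold. At an unadjusted p under 0.05, 1 of 7 was higher and 0 lower in each hydrogel group, beside 8.65% of all genes higher for antimiR-195 and 9.33% for Upy-PEG, with medians of 0.2 for antimiR-195 and 0.09 for Upy-PEG. That gene was Celf2, an RNA-binding protein, for antimiR-195 (0.20 ± 0.0883) and Rbm47 for Upy-PEG. Of the 7 cofactors, 0 were higher for antimiR-195 in the 10-library fit, with a median of 0.13.

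Other deaminases had log2 fold changes of either sign, all smaller than that of Apobec1, which was picked for being high. Of 9 listed, 4 passed the filter and none passed the adjusted threshold, with medians of -0.15 for antimiR-195 and 0.07 for Upy-PEG against PBS. Apobec2, the family member of heart and skeletal muscle, averaged 200 ± 22.1 CPM in antimiR-195, 166 ± 19.6 CPM in Upy-PEG and 163 ± 8.9 CPM in PBS libraries. Its log2 fold change against PBS was 0.29 ± 0.111 for antimiR-195 and 0.02 ± 0.111 for Upy-PEG. Adarb1, an A-to-I editing enzyme, had -0.33 ± 0.159 and -0.09 ± 0.158 in that order. Values for antimiR-195 in the 10-library fit were 0.16 ± 0.116 for Apobec2 and -0.11 ± 0.164 for Adarb1, and the median of the 4 was -0.07.

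Of 13 tested transcripts reported as APOBEC1 editing targets, 9 had positive and 4 negative log2 fold changes in each hydrogel group against PBS, beside 50.8% of all genes positive for antimiR-195 and 44.7% for Upy-PEG. Editing itself cannot be read from these counts. The intestinal target Apob had 8 reads in all libraries. Of 14 listed, none passed the adjusted threshold, with medians of 0.06 for antimiR-195 and 0.07 for Upy-PEG against PBS. At an unadjusted p under 0.05, 3 of 13 were higher for antimiR-195, beside 8.65% of all genes, and 4 for Upy-PEG, beside 9.33%, while 0 were lower, beside 7.89% and 3.83%. B2m, the MHC class I light chain, had 0.60 ± 0.234 for antimiR-195 and 0.53 ± 0.234 for Upy-PEG. Cybb, the catalytic subunit of the phagocyte oxidase, had 0.23 ± 0.219 and 0.89 ± 0.218 (adjusted p = 0.573 and 0.102, edgeR), and Sh3bgrl had 0.43 ± 0.151 and 0.53 ± 0.151 (adjusted p = 0.253 and 0.13). In the 10-library fit 0 of 13 were higher for antimiR-195, the median was 0.17, and B2m was at 0.13 ± 0.214.

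On the side of Gdf3, the 3 receptor genes tested of 6 listed had negative log2 fold changes against PBS, with medians of -0.41 for antimiR-195 and -0.16 for Upy-PEG. None passed the adjusted threshold, and 1 was lower for antimiR-195 and 0 for Upy-PEG at an unadjusted p under 0.05, beside 7.89% and 3.83% of all genes. The low antimiR-195 sums of the listed receptor genes lay in the libraries that stood apart, at 33.7 and 38.4 CPM in replicates 2 and 3. Replicates 1 and 4 had 51.7 and 54 CPM, inside the PBS range of 50.7 to 60.9 CPM. Single genes could still be negative without replicates 2 and 3. With the 10-library fit, 1 of the 3 genes was positive and 2 negative, and 0 were lower at an unadjusted p under 0.05. The median was -0.22, with Acvr1b at -0.22 ± 0.112 and Acvr2b at -0.42 ± 0.39. With the length slope of each library in the fit, 1 of the 3 was lower, beside 5.04% of all genes. That gene was Acvr1b, at -0.25 ± 0.0927. Over all 4 libraries of each group, Acvr1b, which encodes ALK4, averaged 23 ± 3.73 CPM in antimiR-195, 28.7 ± 1.05 CPM in Upy-PEG and 30.7 ± 3.32 CPM in PBS libraries. Its log2 fold change against PBS was -0.41 ± 0.12 for antimiR-195 (adjusted p = 0.253, edgeR) and -0.10 ± 0.12 for Upy-PEG (adjusted p = 0.802, edgeR). Acvr2b, which encodes ActRIIB, had -0.54 ± 0.307 and -0.57 ± 0.302 in that order, at a mean of 0.973 CPM in antimiR-195, 0.953 CPM in Upy-PEG and 1.43 CPM in PBS libraries. Acvr1c, which encodes ALK7, had 20 reads and Tdgf1, which encodes Cripto, had 43 reads over all 12 libraries, too few to test. The 4 SMAD genes tested had 0 members past an unadjusted p of 0.05 in either comparison against PBS, beside 16.5% and 13.2% of all genes. Their medians were -0.11 for antimiR-195 and -0.02 for Upy-PEG. Positive values were found for 0 of 4 in antimiR-195 and 2 of 4 in Upy-PEG, beside 50.8% and 44.7% of all genes. Smad3 was at -0.25 ± 0.16 for antimiR-195 and -0.09 ± 0.159 for Upy-PEG, and Smad4 at -0.12 ± 0.0999 and -0.04 ± 0.0996. The antimiR-195 median was -0.03 in the 10-library fit.

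Among the tested ligands of the same superfamily, Gdf15 had the largest log2 fold changes against PBS. Unlike the pair, it averaged higher in antimiR-195 than in Upy-PEG libraries, with a log2 difference of 0.29 ± 0.32. Across libraries, Inhbb was the ligand most like both genes, with r = 0.73 for Apobec1 and 0.82 for Gdf3. Of 12 listed, 9 were tested and none passed the adjusted threshold. At an unadjusted p under 0.05, 2 of 9 were higher for antimiR-195 against PBS, beside 8.65% of all genes, and 5 of 9 for Upy-PEG against PBS, beside 9.33%, with 0 lower and medians of 0.05 and 0.51. Gdf15, a stress-induced ligand, averaged 9.77 ± 4.41 CPM in antimiR-195, 7.98 ± 2.84 CPM in Upy-PEG and 3.93 ± 1.33 CPM in PBS libraries, with log2 fold changes of 1.32 ± 0.332 and 1.03 ± 0.33 (adjusted p = 0.253 and 0.179, edgeR). A single ligand, 1 of 9, was higher for antimiR-195 in the 10-library fit, which was Gdf15 at 0.94 ± 0.33, and the median was 0.15. Inhbb, the beta B subunit of activins and inhibins, had 0.24 ± 0.198 for antimiR-195 and 0.65 ± 0.195 for Upy-PEG. The 5 inhibitor genes tested of 7 listed had 0 members past the adjusted threshold and medians of 0.29 for antimiR-195 and -0.06 for Upy-PEG. Fstl3, a follistatin-like binding protein, had 0.29 ± 0.264 and 0.71 ± 0.261, and the BMP antagonist Nog had 0.45 ± 0.412 and -0.71 ± 0.438. The inhibitors had an antimiR-195 median of -0.03 in the 10-library fit, and Nog was at 0.03 ± 0.514.

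Genes of the PPAR-gamma and RXR axis showed no common direction. Pparg itself averaged 9.69 ± 2.04 CPM in antimiR-195, 8.49 ± 1.53 CPM in Upy-PEG and 8.12 ± 1.16 CPM in PBS libraries. All 10 listed genes were tested, none passed the adjusted threshold, and the medians were 0.03 for antimiR-195 and -0.02 for Upy-PEG. At an unadjusted p under 0.05, 1 of 10 was lower for antimiR-195 and 1 of 10 higher for Upy-PEG, near the 7.89% lower and 9.33% higher of all genes. Likewise 1 of 10 was lower for antimiR-195 in the 10-library fit, beside 2.28% of all genes, with a median of 0.01. That gene was Rxrb at -0.25 ± 0.115, while Rxra was at -0.14 ± 0.0971. With the length slope of each library in the fit, 2 of 10 were lower, beside 5.04% of all genes, with a median of 0.03. Abcg1, a sterol transporter gene, had 0.07 ± 0.18 for antimiR-195 and 0.67 ± 0.178 for Upy-PEG (adjusted p = 0.857 and 0.116, edgeR). Rxra, which encodes a partner of PPAR-gamma, had -0.33 ± 0.116 and -0.17 ± 0.116 (adjusted p = 0.253 and 0.593).

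**Figure D4:**
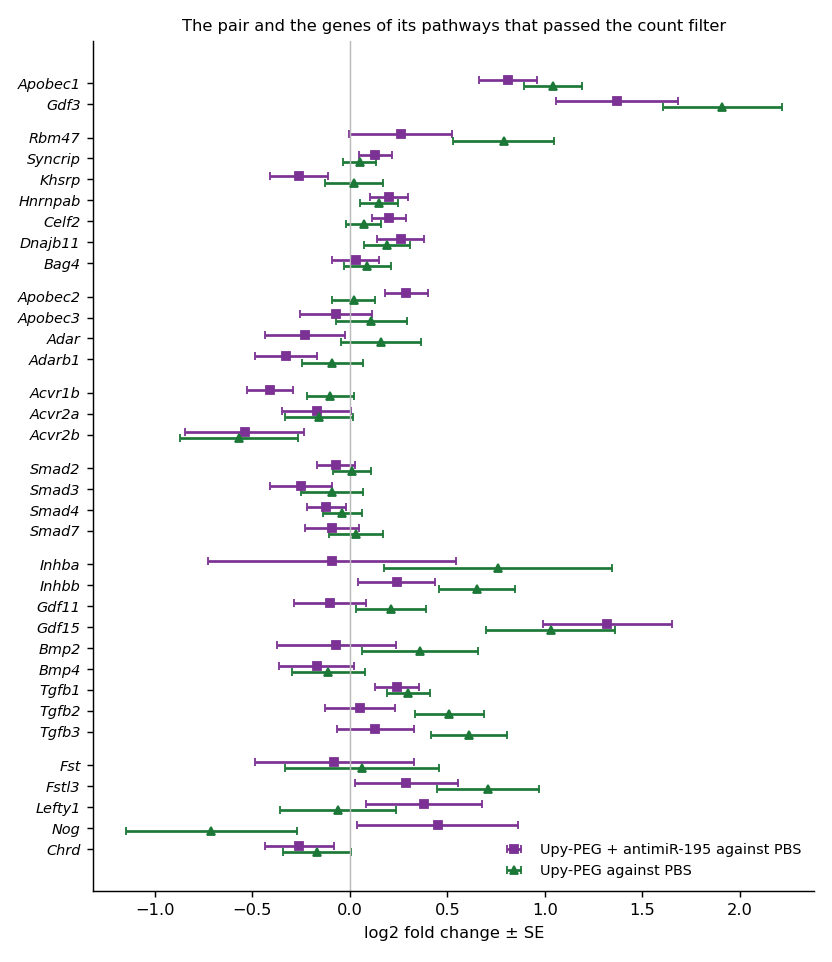
Log2 fold change ± SE against PBS (n = 4 libraries per group) of the pair and of the listed cofactors, deaminases, receptors, SMADs, ligands and inhibitors that passed the count filter, for Upy-PEG with antimiR-195 (squares) and Upy-PEG (triangles). The pair and Gdf15 lie farthest to the right in both comparisons, and the receptors lie at or below 0.

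Summed macrophage markers averaged higher in both hydrogel groups than in PBS, as the pair did. The 20 markers summed to 1003 to 1992 CPM in antimiR-195, 1464 to 2100 CPM in Upy-PEG and 785 to 1190 CPM in PBS libraries. For antimiR-195 against PBS, 14 of 20 were higher, beside 50.8% of all genes, and 6 lower, with a median of 0.37. Of these, 8 were higher and 2 lower at an unadjusted p under 0.05, beside 8.65% and 7.89% of all genes. For Upy-PEG against PBS, 17 were higher, beside 44.7% of all genes, and 3 lower, with a median of 0.72. There, 15 were higher and 0 lower at an unadjusted p under 0.05, beside 9.33% and 3.83% of all genes. None passed the adjusted threshold. Cd68 had 0.66 ± 0.192 for antimiR-195 and 1.22 ± 0.193 for Upy-PEG (adjusted p = 0.253 and 0.0809, edgeR), and Adgre1, which encodes the F4/80 antigen, had 0.22 ± 0.188 and 0.91 ± 0.188 (adjusted p = 0.517 and 0.0971). Between antimiR-195 and Upy-PEG, all 20 were lower in antimiR-195, as 50.8% of all genes were, 6 of them at an unadjusted p under 0.05, beside 6.4% of all genes, with a median of -0.3. In bulk tissue, more cells of a type and more RNA per cell cannot be told apart.

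The antimiR-195 count was smaller when the libraries that stood apart were left out or the length slope was fitted. The share of all genes higher fell as well in both settings, from 8.65%, and the cause of the smaller count was not tested. Without antimiR-195 replicates 2 and 3, 2 of 20 markers were higher at an unadjusted p under 0.05, with a median of 0.12, beside 2.2% of all genes. With the length slope of each library in the fit the count was also 2, beside 3.97% of all genes, with a median of 0.19. For Upy-PEG against PBS, 16 of 20 were higher in each of these settings, beside 11.34% and 12.37% of all genes. The medians there were 0.73 and 0.7 in that order. Apobec1 and Gdf3 had log2 fold changes of 0.74 and 1.22 for antimiR-195 against PBS without antimiR-195 replicates 2 and 3. These are sizes of a difference and cannot be set against counts of markers. AntimiR-195 replicate 1 had a marker sum of 1003 CPM, inside the PBS range, and Apobec1 at 16.1 CPM, above the PBS range of Apobec1. Because the pair was picked for lying above PBS, nothing is read from this library.

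Set against the sum of all 20 markers, Apobec1 overlapped between the groups. That sum is carried by few genes: Lyz2, which encodes lysozyme, and the C1q genes C1qa, C1qb and C1qc made 68.9% ± 3.97 of it in antimiR-195, 66.3% ± 2.6 in Upy-PEG and 63.1% ± 3.12 in PBS libraries (SD, n = 4). Apobec1 had 14.5 ± 2.93 CPM per 1000 CPM of macrophage markers in antimiR-195, 13.6 ± 1.7 in Upy-PEG and 11.8 ± 2.22 in PBS libraries (SD, n = 4), with overlapping ranges of 11.1 to 17.7, 12.1 to 15.8 and 8.78 to 13.7. Gdf3 had 0.776 ± 0.157 in antimiR-195, 0.914 ± 0.279 in Upy-PEG and 0.441 ± 0.15 in PBS libraries. Its hydrogel libraries remained above PBS but for 1 antimiR-195 library, replicate 2 at 0.583, which was just under the highest PBS library at 0.589. Against the sum of the other 16 markers, a setting chosen after the values were seen, neither gene overlapped between hydrogel and PBS libraries. Apobec1 then had 41.2 to 50.3 CPM per 1000 CPM in antimiR-195, 37.5 to 47 in Upy-PEG and 26.7 to 35.4 in PBS libraries. Gdf3 had 2.16 to 2.91 in antimiR-195, 2.1 to 3.51 in Upy-PEG and 0.809 to 1.47 in PBS libraries. Both genes were picked for lying above PBS, and the share of all genes that separate on this scale was not computed. Nothing is therefore read from the separation over the 16 markers. The part of the macrophage markers in the levels of the pair was not tested.

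**Figure D5:**
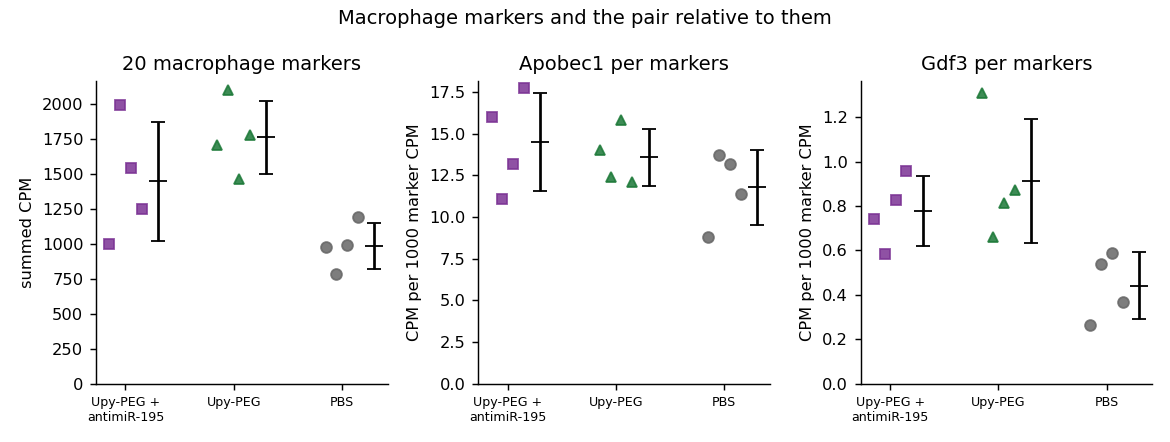
Summed CPM of 20 macrophage markers (left), and Apobec1 (middle) and Gdf3 (right) as CPM per 1000 CPM of those markers, in each library with the group mean ± SD (n = 4). Apobec1 per marker CPM overlaps between all 3 groups, while Gdf3 per marker CPM is lowest in PBS with 1 antimiR-195 library inside the PBS range.

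Across libraries, the markers differed in how like the pair they were. The median r of the 20 macrophage markers was 0.76 with Apobec1 and 0.72 with Gdf3, beside -0.04 and -0.06 over all genes tested. Cd68 was at the top, with 0.95 for Apobec1 and 0.92 for Gdf3. Cd163, a scavenger receptor of resident macrophages, was at the bottom, with -0.52 and -0.45. Fibroblast markers had medians of 0.49 and 0.56, neutrophil markers 0.49 and 0.39, endothelial markers -0.32 and -0.18, and cardiomyocyte markers -0.28 and -0.34. With group means taken out, macrophage markers no longer stood above fibroblast markers. The medians were then 0.5 and 0.41 for macrophage, 0.52 and 0.5 for fibroblast and 0.43 and 0.25 for neutrophil markers. Endothelial markers had -0.3 and 0.04, and cardiomyocyte markers -0.22 and -0.44.

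Markers of the other cells in which these genes are best known were low, but so was Gdf3, at 0.261 to 2.24 CPM per library. None of 7 pluripotent and germ cell markers passed the filter, and Pou5f1, Zfp42, Dppa4 and Dppa5a had no read in any library. None of 5 intestinal epithelium markers passed, and Cdx2 and Fabp2 had no read. Of 5 adipocyte markers only Cfd passed, with 0.23 ± 0.432 for antimiR-195 and -1.31 ± 0.465 for Upy-PEG against PBS, and the 5 summed to 0.603 to 4.72 CPM in antimiR-195, 0.715 to 1.15 CPM in Upy-PEG and 1.79 to 2.87 CPM in PBS libraries. Neutrophil markers summed to 10.4 to 28.2 CPM in antimiR-195, 24.3 to 35.5 CPM in Upy-PEG and 9.8 to 30.1 CPM in PBS libraries. The 6 neutrophil markers tested had medians of 0.08 for antimiR-195 and 0.75 for Upy-PEG against PBS, with 0 and 2 of 6 higher at an unadjusted p under 0.05, beside 8.65% and 9.33% of all genes. Mmp8, a neutrophil collagenase, had 0.29 ± 0.348 and 1.42 ± 0.325, and the receptor gene Csf3r had -0.13 ± 0.268 and 0.72 ± 0.263. Fibroblast markers summed to 2159 to 3580 CPM in antimiR-195, 3149 to 6409 CPM in Upy-PEG and 2305 to 3776 CPM in PBS libraries. The 5 fibroblast markers had medians of -0.12 and 0.71, with Postn at 0.91 ± 0.359 and 1.66 ± 0.365 and Col1a1 at -0.29 ± 0.274 and 0.93 ± 0.276. At an unadjusted p under 0.05, 1 and 3 of 5 were higher, beside 8.65% and 9.33% of all genes, and 0 were lower. The 5 endothelial markers had medians of -0.23 and -0.12, with Flt1 at -0.34 ± 0.136 and -0.38 ± 0.136 and Tie1 at -0.23 ± 0.108 and -0.29 ± 0.108. In each comparison 2 of 5 were lower at an unadjusted p under 0.05, beside 7.89% and 3.83% of all genes, and 0 were higher. The 7 cardiomyocyte markers had medians of 0.11 and -0.29. For antimiR-195, 4 were higher and 3 lower, beside 50.8% of all genes higher. For Upy-PEG, 0 were higher and 7 lower, beside 44.7% of all genes higher. At an unadjusted p under 0.05, 1 of 7 was lower in each comparison, beside 7.89% and 3.83% of all genes, and 0 were higher. Myh6 was at -0.40 ± 0.17 and -0.42 ± 0.17, and Myl2 at 0.29 ± 0.194 and -0.34 ± 0.194. The 3 lymphocyte markers tested had medians of -0.19 and 0.27, with Cd4 at -0.19 ± 0.334 and 0.27 ± 0.32. The antimiR-195 medians in the 10-library fit were -0.74 for neutrophil, -0.14 for fibroblast, -0.04 for endothelial, -0.05 for cardiomyocyte and -0.52 for lymphocyte markers. In that fit 0 fibroblast markers were higher and 0 endothelial markers lower at an unadjusted p under 0.05, beside 2.2% and 2.28% of all genes. None of these lists had a member past the adjusted threshold, and their part in the levels of the pair was not tested.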

How the data were processed

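RNA was sequenced from 12 left ventricle samples. Per the labels, libraries were made from polyadenylated TRIzol RNA by a stranded TruSeq protocol. The submitters' processing notes name STAR, HTSeq, DESeq and GRCm38; versions are not given in the sources used here. The deposited values are raw counts per gene and the authors' RPKM; the count table equalled the per-sample files in 459516 of 459516 cells. Reads on no gene (6.25% to 8.77%) and ambiguous reads (0.66% to 0.9%) were left out.

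The fit used edgeR 4.0.16 (R 4.3.3, limma 3.58.1): filterByExpr, TMM, the quasi-likelihood test over all 12 libraries (9 residual degrees of freedom), with p-values adjusted by Benjamini-Hochberg across 14770 genes and a threshold of 0.05. It was tested on simulated counts. Log2 CPM used a prior count of 2. GENCODE M21 gave symbols to 36345 of 38293 gene IDs. Alternatives included DESeq2 1.42.0, other scalings, filters and left-out libraries. The members, lists and motifs were chosen with earlier results of these data known. Genes named were neighbours within 500 kb that passed the filter, the 10 genes most like each member and the 2 lowest p per list. The cofactors, receptors and Pparg of the pathway were also named. B2m, Cd163, Apob, Dppa3, Nanog, Lyz2, Rxrb and the C1q genes, and the listed markers with no read, were added after their values were seen. A gene that the rule would also name is not reported here.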

Additional observations from a re-analysis of the deposited data

Results flagged for a closer look

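In 57 groups of 4 libraries, made of 19 genes in 3 groups, 2 libraries stood apart from the others of their group by Dixon's test; chance gives about 1 in 20. The pseudogene Gm8459 had 0.974 CPM in antimiR-195 replicate 1, against 0.129 to 0.271 CPM in the other antimiR-195 libraries. Clec4b1, a C-type lectin gene, had 0.912 CPM in PBS replicate 1, against 0.297 to 0.398 CPM in the other PBS libraries. No group of Apobec1 or Gdf3 was among them.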

How the results depend on the processing

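The sign of every log2 fold change of Apobec1 and Gdf3 was the same under all alternatives run. Leaving out 1 library at a time gave 0.69 to 0.90 for Apobec1 and 1.18 to 1.55 for Gdf3 (antimiR-195 against PBS), 0.92 to 1.13 and 1.70 to 2.10 (Upy-PEG against PBS), -0.29 to -0.15 and -0.67 to -0.33 (antimiR-195 against Upy-PEG), and 0.81 to 1.02 and 1.45 to 1.83 (both hydrogel groups against PBS). The r of the pair was 0.922 to 0.967, and Spearman rho was 0.825. On log2(RPKM + 0.1) the Gdf3 value for antimiR-195 against PBS was 0.99, since the pseudocount is large beside its level. Scaling by library size alone moved the median of all genes by over 0.1 between antimiR-195 and Upy-PEG (to -0.156, against -0.005 with TMM) and between Upy-PEG and PBS (to 0.073, against -0.028).

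Counts of genes past an adjusted p of 0.05 were 0 in each comparison with edgeR and depended on the setting. For antimiR-195 against PBS they were 1 with no filter and 95 with DESeq2. For Upy-PEG against PBS they were 69 with no filter, 172 with only the libraries compared, 505 with DESeq2 and 0 to 150 with 1 library left out (46 without Upy-PEG replicate 3, 150 without antimiR-195 replicate 2). Chosen after seeing the data, the length slope as a covariate gave 332 there, and leaving out antimiR-195 replicates 2 and 3 gave 349. DESeq2 gave 13 for antimiR-195 against Upy-PEG, and for both hydrogel groups against PBS the count was 6 with no filter and 367 with DESeq2. Macrophage markers higher in antimiR-195 numbered 2 under both added settings, and neighbours 4 with the length slope and 1 without those libraries, against 5 in the fit as reported. The causes of these moves were not tested. No paired analysis was possible because replicate numbers follow the order of deposition. Gdf3 rests on 8 to 72 reads per library, which limits its precision.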
